A study of Torulaspora delbrueckii with 17 samples.

Results

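HML is a silent mating-type locus of the budding yeast Torulaspora delbrueckii, and its genes HMLALPHA2 and HMLALPHA1 lie on chromosome 3 from 1273613 to 1275265 in assembly ASM24337v1. All regions of chromatin immunoprecipitation sequencing (ChIP-seq) that overlapped these genes or the 5 kb on either side, from 1268613 to 1280265, were taken. They numbered 46 of the 5717 deposited regions, 24 from the Orc1 lists and 22 from the Kos3 lists. A region is a peak as deposited, called in 1 library. The lists hold no measure of transcription, so the places described below are called binding sites and were not tested as silencers.

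In budding yeasts, cells carry mating-type genes at an expressed locus and extra copies at silent loci. In Saccharomyces cerevisiae the α2 protein represses a-specific genes and the α1 protein activates α-specific genes, and the copies at HML are kept silent from short flanking elements, the silencers. The origin recognition complex, of which Orc1 is a subunit, binds silencers there, Sir1 binds Orc1 through its BAH domain, and the histone deacetylase Sir2 acts along the locus with other Sir proteins. Kos3 belongs to the Sir1 family. The BAH domain is a module of Orc1 that contacts nucleosomes.

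Orc1 was precipitated through a MYC tag in libraries 1 and 2 of a sir2 mutant (strain LRY3206), 1 library of a kos3 mutant (LRY3205), libraries 1 and 2 of an orc1bah mutant (LRY3212), 2 libraries of orc1P179A mutants (LRY3215 and LRY3216) and 2 wild-type libraries (LRY3204 and LRY3211). Kos3 was precipitated through a V5 tag in 2 orc1bah libraries (LRY3212), 2 orc1P179A libraries (LRY3215 and LRY3216) and 2 wild-type libraries (both LRY3211). All immunoprecipitated strains carried tagged Orc1 per the labels, mutant Orc1 included, and the titles name the Kos3 tag for LRY3211, LRY3212, LRY3215 and LRY3216. The labels give the mutants by lower-case gene names, or by the substitution P179A, and do not state the extent of the sir2, kos3 and orc1bah changes. Cells grew in rich medium at a single temperature. The first wild-type Orc1 library, from LRY3204, thus came from a strain without the Kos3 tag in its title, and the second, from LRY3211, from the strain of the wild-type Kos3 libraries. The series calls its pairs technical replicates, so values from the same strain differ by technical spread. The 2 input libraries came from another, untagged strain.

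The lists held from 33 to 726 regions and no read counts, so depth is unknown and a missing region means only that none passed the peak caller's threshold. In the sir2 and orc1P179A lists from 56.6% to 94.9% of regions lay on chromosome 8, against 8.82% to 16.0% in the other lists, and whether this bears on calls at HML was not tested. Groups are compared by their values, since the smallest p of an exact permutation test of 2 libraries against 2 (two-sided) is 0.333.

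Every mutant list covered only short stretches at HML, while wild-type Orc1 and Kos3 covered the genes and their flanks over kilobases. In wild type the strongest Orc1 and Kos3 regions of the window had their summits at 1 place to the right of HMLALPHA1. Kos3 was found there in all 6 lists, whatever the orc1 allele. Orc1 was found there in 7 of 9 lists and in neither sir2 list. Another Orc1 site, to the left of the genes, was covered in all 9 Orc1 lists, sir2 included. Kos3 regions lay at that left site in none of the 4 mutant Kos3 lists and in both wild-type ones.

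**Figure D1:**
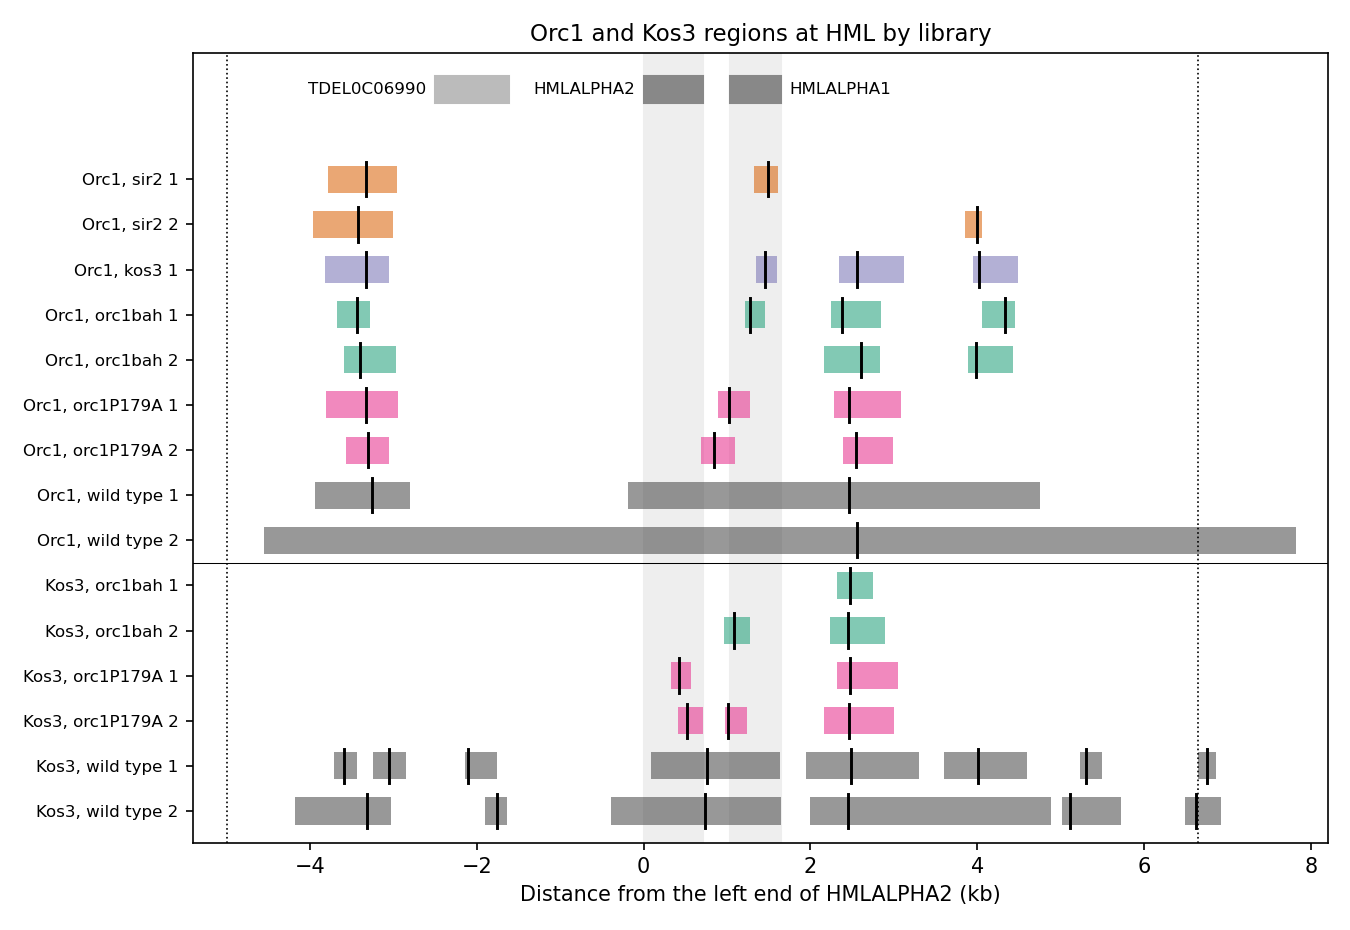
Regions (bars) and their summits (black ticks) in each of the 15 libraries, by distance in kb from the left end of HMLALPHA2. Grey columns mark HMLALPHA2 and HMLALPHA1, and dotted lines the window of 5 kb on either side. All mutant rows hold short separate bars and both sir2 rows lack the site to the right of HMLALPHA1, while the wild-type Orc1 rows hold long bars over both genes.

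The covered length of the window, 11653 bp in all, was summed first. Orc1 regions covered 1113 and 1153 bp in the sir2 libraries, 1611 and 1834 bp in orc1bah, 2042 and 1522 bp in orc1P179A and 2338 bp in kos3, against 6081 and 11203 bp in wild type. The 7 mutant libraries all lay below both wild-type libraries, and the sir2 libraries lay below the other mutant libraries. The means were 1133 ± 28.3 bp in sir2, 1722.5 ± 158 bp for orc1bah and 1782 ± 368 bp for orc1P179A, against 8642 ± 3622 bp in wild type (SD, n = 2 each). The sir2 libraries share a strain, as do those of orc1bah, so their SDs are technical spread. Those of orc1P179A and of wild type come from different strains, so these SDs are not alike. The ratio to the wild-type mean was 0.131 for sir2, 0.199 for orc1bah, 0.206 for orc1P179A and 0.271 for kos3.

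The spread within wild type was itself large, since the second library covered 1.84 times the length of the first. These 2 libraries differ in strain, in the Kos3 tag and in the input they were called against, which cannot be told apart. Set against the wild-type library that shared their input, the mutants had ratios of 0.186 in sir2, 0.154 in orc1bah, 0.159 in orc1P179A and 0.384 in kos3. The sir2 ratio was then above those of orc1bah and orc1P179A. The order of the mutants relative to wild type thus depended on the wild-type library used.

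Of the same window, Kos3 regions took up 434 and 978 bp in the orc1bah libraries and 977 and 1407 bp in the orc1P179A libraries, against 5193 and 7196 bp in wild type. The groups did not overlap. The means were 706 ± 385 bp for orc1bah and 1192 ± 304 bp for orc1P179A, against 6194.5 ± 1416 bp in wild type (SD, n = 2 each), giving ratios of 0.114 and 0.192. Without the second orc1bah library the first of these was 0.0701. For Kos3 the SDs of orc1bah and wild type are each within a strain, and that of orc1P179A is between strains. Between the orc1 alleles the Kos3 lengths overlapped, since the higher orc1bah library, at 978 bp, lay above the lower orc1P179A library, at 977 bp.

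**Figure D2:**
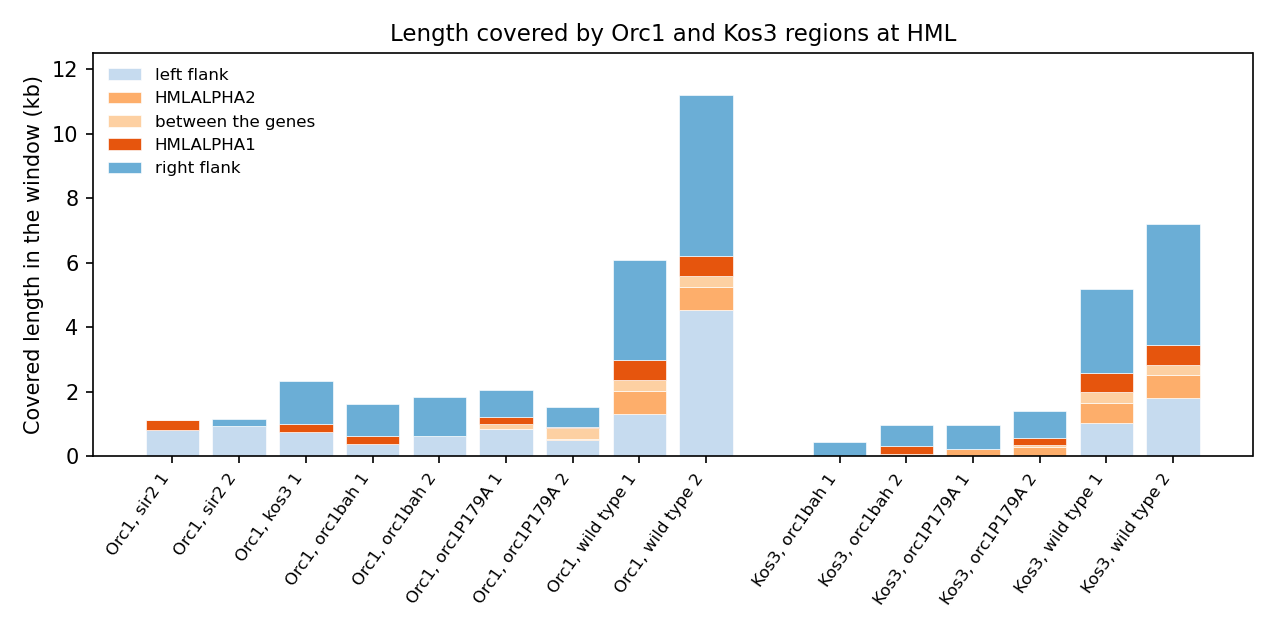
Length in kb covered by regions within the window in each library, stacked by part of the window. The 11 mutant bars stand between 0.434 and 2.34 kb and the 4 wild-type bars between 5.19 and 11.2 kb.

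Shorter cover was common in the mutants, so the HML values are set beside all wild-type regions. Of 235 Orc1 regions found in both wild-type lists, 34.9% were covered over fewer bp in every sir2 library than in each wild-type library. The share was 50.6% for orc1bah, 48.5% for orc1P179A and 49.8% for the single kos3 library. The right end of HMLALPHA1 is at least 16.6 kb from the end of the chromosome. Among the 26 regions within 20 kb of a chromosome end the shares were 80.8% for sir2, 100% for orc1bah, 80.8% for orc1P179A and 92.3% for kos3. HML, linked to 1 span from 1269063 to 1281438 by the second wild-type list, was among the shorter ones in all 4 mutants.

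At most regions a larger part of the length was kept than at HML. The HML span kept 12.3% of its wild-type length in sir2, where 20 of the 235 regions kept as little or less and the median region kept 95.5%. It kept 18.7% in orc1bah, 19.3% in orc1P179A and 25.3% in kos3, where 28, 21 and 17 of the 235 regions kept as little or less. The median of the regions near chromosome ends was 37.5% in sir2, 33.9% in orc1bah, 49.3% in orc1P179A and 45.2% in kos3. HML was long, at 9228.5 bp on the wild-type mean, and other long regions also lost cover. In sir2, the others of at least 7635 bp kept 40.7%, 34.4%, 31.3%, 21.6% and 3.26%. Regions with a wild-type mean of 4197.5 to 5113.5 bp kept from 3.75% to 52.6% there. These counts and shares describe the libraries and were not tested.

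For Kos3 the background share was higher still, since 95.2% of the 62 wild-type regions were covered over fewer bp in every orc1bah library and 95.2% in every orc1P179A library. Of the 40 near chromosome ends it was 100% and 92.5%. The 6 Kos3 regions at HML were all among the regions covered over fewer bp in both mutants, though not all lay near the chromosome end. The one at the right site, from 1275565 to 1278494, kept 21.1% of its length in orc1bah and 30.2% in orc1P179A, and the one over the genes, from 1273223 to 1275259, kept 8.70% and 22.5%. The other 4 were in no mutant Kos3 list. Missing from every library were 61.3% of all wild-type Kos3 regions in orc1bah and 50% in orc1P179A.

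**Figure D3:**
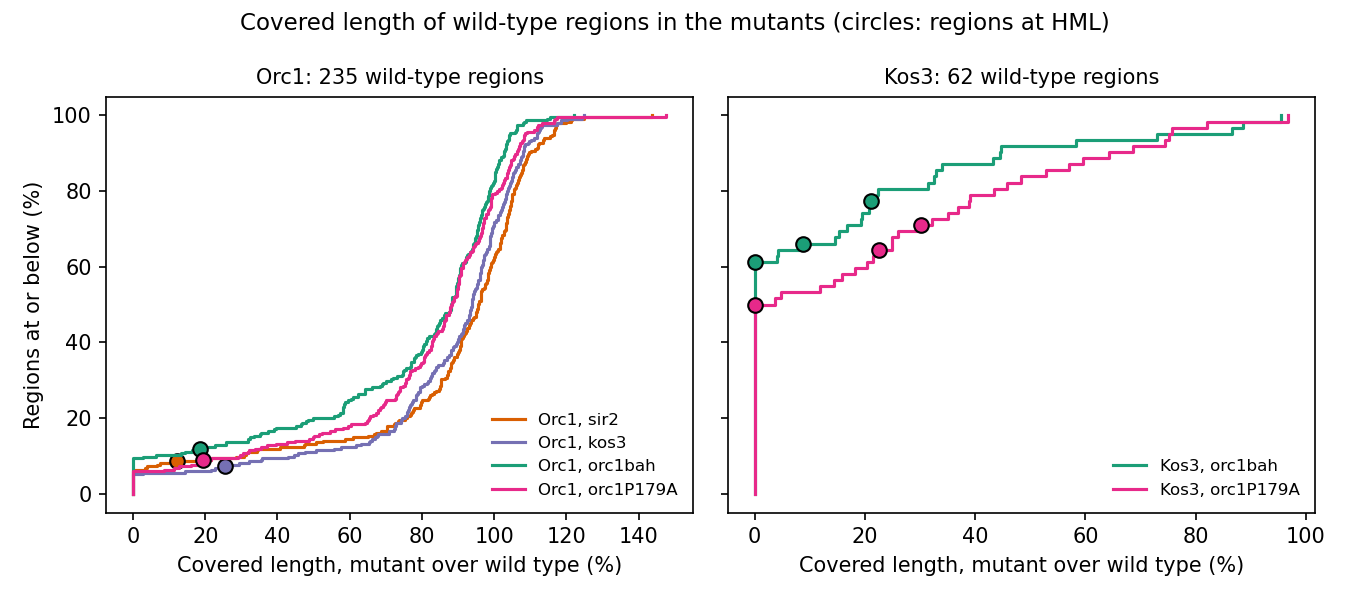
Cumulative share of wild-type regions (y axis, percent) by the length kept in a mutant (x axis, percent of the wild-type mean), for 235 Orc1 regions on the left and 62 Kos3 regions on the right. Circles mark the regions at HML, which lie low on the Orc1 curves, between 12.3% and 25.3%, and at 0% to 30.2% on the Kos3 curves.

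The left site was the steadiest Orc1 place at HML. Its summits lay between VAC17, which in S. cerevisiae encodes a vacuole inheritance adaptor, and TDEL0C06990, from 3049 to 3594 bp left of HMLALPHA2. The Orc1 region there was 824 and 953 bp wide in sir2, 391 and 624 bp in orc1bah, 856 and 518 bp in orc1P179A and 770 bp in kos3, against 1141 bp in the first wild-type list. In the second wild-type list the spanning region of 12376 bp covered the site with no summit of its own. All mutant widths lay below that of the first wild-type library, with no second value to show the spread in wild type.

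The left-site Orc1 summits of the 8 lists with one fell between 1270177 and 1270354, a range of 177 bp. At 209 places with a region in each of these 8 lists the median range was 87 bp, and 183 places had a range of 177 bp or less. The fold enrichment at the summit, a value that the authors' peak caller gives each peak of its own list, was 4.84 and 5.15 in sir2, 3.29 and 3.83 in orc1bah, 3.13 and 2.79 in orc1P179A, 4.35 in kos3 and 5.31 in the first wild-type list. By fold it was a middling region of the wild-type list, in place 168 of 300.

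Kos3 at the left site was weak. Neither orc1bah list and neither orc1P179A list had a Kos3 region there. The first wild-type list had a pair of regions, 274 and 392 bp wide with folds of 2.62 and 2.75, and the second had 1 region of 1146 bp with a fold of 2.53. None of the wild-type regions reached a −log10 q of 10, so their absence in the mutants concerns calls near the threshold.

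The right site lay between HMLALPHA1 and TDEL0C07020, with summits from 727 to 960 bp beyond the right end of HMLALPHA1 and at least 5.43 kb from those of the left site. Orc1 had no region there in the sir2 libraries. The Orc1 region was 594 and 680 bp wide in orc1bah, 809 and 598 bp in orc1P179A and 783 bp in kos3, against 4940 and 12376 bp in wild type. The widest mutant region was thus under the narrower of the wild-type regions. The wild-type regions were long for their lists, in place 5 of 300 and place 4 of 308 by width.

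The lack of the right site in sir2 was set beside all wild-type summits. Of the 300 summits of the first wild-type list, 22.7% were covered in no sir2 library, and of the 308 of the second 27.6%. Within 20 kb of chromosome ends these shares were 51% and 72.7%. Of the 127 regions of the first wild-type list with a fold at or above that of HML, the summits of 2 were uncovered in sir2, the one at HML and one on chromosome 7 at 1 to 6753, named here after its values were seen. Of the 37 such regions of the second list the HML summit was the one uncovered. Of the same 127 summits, 1 was uncovered in kos3, on chromosome 2, and 0 in orc1bah and in orc1P179A. Of the same 37, 0 were uncovered in each of these mutants. The cut was the fold of HML itself, so HML is in both sets by construction and uncovered summits of lower fold are left out. Both wild-type HML summits were covered in the kos3, orc1bah and orc1P179A lists, although many other wild-type summits were not. Of the first list's summits, 24.7% were uncovered in orc1bah, 22.3% in orc1P179A and 21.7% in kos3, and of the second list's 29.9%, 26.9% and 27.3%. Near chromosome ends, loss was also common outside sir2. There 52.9% and 74% of the summits of the first and second lists were uncovered in orc1bah, 39.2% and 67.5% in orc1P179A and 56.9% and 74% in kos3.

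Within a list, the right site can be ranked against the left. Orc1 folds at the right site were 2.29 and 3.36 in orc1bah, 4.44 and 2.59 in orc1P179A, 5.65 in kos3 and 7.85 and 14.7 in wild type. Each is a value of its own list, and folds are not compared between lists. The right fold exceeded the left in kos3, by a factor of 1.30, in the first orc1P179A list, by 1.42, and in the first wild-type list, by 1.48. It was lower than the left in both orc1bah lists, at 0.697 and 0.878 of it, and in the second orc1P179A list, at 0.927. The order of the sites thus did not agree between the orc1P179A libraries. In the first orc1bah list the right site had a −log10 q of 6.25 and in the second orc1P179A list 9.19, so neither would be listed at a threshold of 10.

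**Figure D4:**
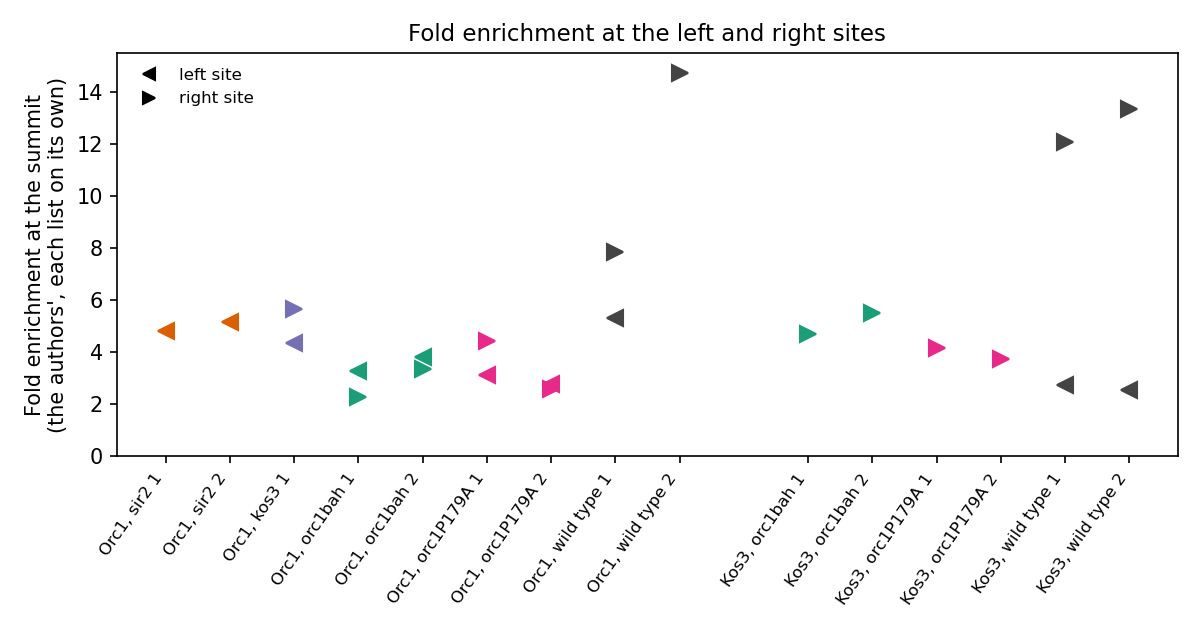
Fold enrichment at the summit of the left site (triangles pointing left) and the right site (triangles pointing right) in each library, as the authors' peak caller gave it. Values are to be compared within a library. The right site is the lower one in both orc1bah Orc1 lists and the higher one in every wild-type list with both.

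Kos3 at the right site stood high in every Kos3 list. Its fold was 4.68 and 5.53 in orc1bah, 4.15 and 3.73 in orc1P179A and 12.1 and 13.3 in wild type. It had the highest fold of all 33 and all 50 regions in the orc1bah lists. It had the third highest of 725 and of 726 in orc1P179A, and the third highest of 105 and of 119 in wild type. In these orc1P179A lists 94.9% and 93.5% of the regions lay on chromosome 8, so their ranks are not comparable with those of the other lists. Most wild-type Kos3 summits had no cover in the mutants. Of those of the first and second wild-type lists, 81% and 84% were covered in no orc1bah library, and 73.3% and 73.9% in no orc1P179A library, while both HML summits were covered in each. In wild type the right site exceeded the left-site fold 4.40 and 5.26 times. The orc1bah regions were 434 and 666 bp wide and the orc1P179A regions 737 and 841 bp, against 1344 and 2884 bp in wild type. All 4 mutant regions were thus narrower than both wild-type regions. Such loss was common, since 95.2% of the 62 wild-type Kos3 regions were covered over fewer bp in every library of each mutant.

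The Kos3 summits at the right site were tightly placed. They lay at 1276090 and 1276069 in orc1bah, at 1276089 and 1276076 in orc1P179A and at 1276094 and 1276067 in wild type, within 27 bp over the 6 lists. Of 19 places with a region in every Kos3 list this was the smallest range, and the median was 174 bp. Orc1 summits there were more scattered. They lay at 1275992 and 1276225 in orc1bah, at 1276079 and 1276164 in orc1P179A and at 1276169 in kos3, against 1276075 and 1276176 in wild type. Their range was 233 bp over 7 lists, against a median of 83.5 bp at 218 places with a region in each of these lists, of which 192 had a range as small or smaller. The orc1bah libraries held both the leftmost and the rightmost Orc1 summit.

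**Figure D5:**
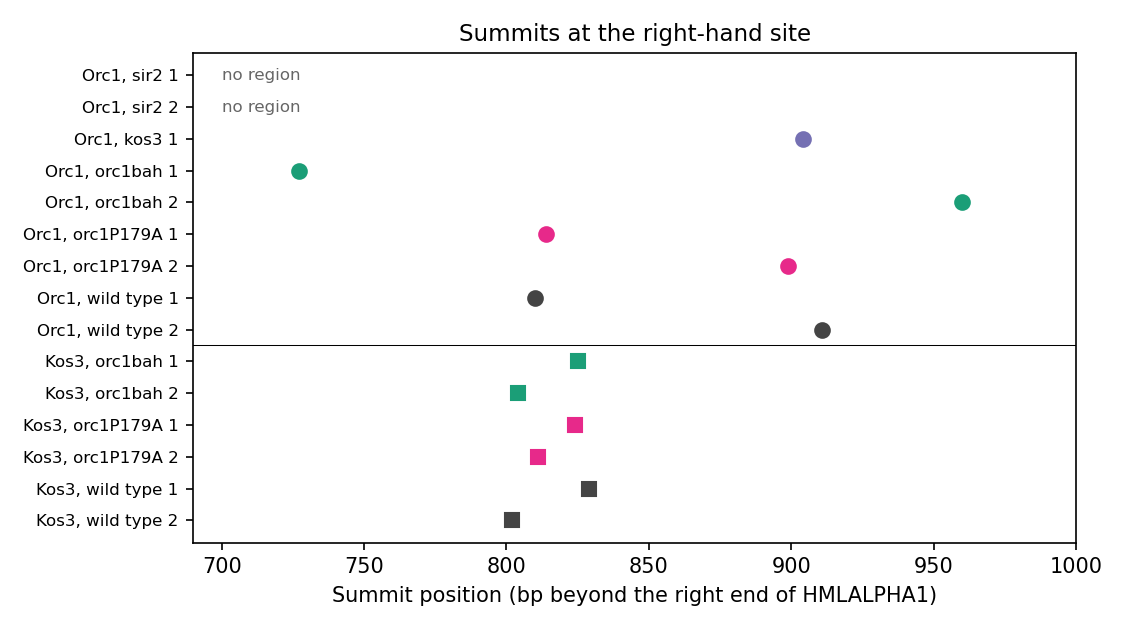
Position of each summit at the right site, in bp beyond the right end of HMLALPHA1, with Orc1 as circles and Kos3 as squares. The 6 Kos3 summits fall within 27 bp and the 7 Orc1 summits within 233 bp, and neither sir2 library has a region.

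Pairs of libraries from 1 strain gave the offset between the proteins. The Kos3 and Orc1 summits at the right site were 10 bp apart in LRY3215 and 88 bp in LRY3216, the orc1P179A strains. In orc1bah they were from 77 to 156 bp apart over the 4 pairings, and in wild-type LRY3211 82 and 109 bp. Since Orc1 summits of 1 strain differed by up to 233 bp, these offsets are within the spread of Orc1 itself.

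Over the genes, HMLALPHA1 was covered by Orc1 at 46.8% and 0% in sir2, 37.7% and 0% in orc1bah, 38.5% and 9.71% in orc1P179A and 39.5% in kos3, against 100% in both wild-type libraries. HMLALPHA2 was covered at 3.50% in the second orc1P179A library and at 0% in the other mutant Orc1 libraries, against 100% in both wild-type libraries. The sir2 and orc1bah libraries without cover had a partner with it, so presence over the genes differed within these pairs.

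Where a mutant list had an Orc1 region of its own over the genes, it was short. These 5 regions were 289 bp wide in the first sir2 list, 233 bp in the first orc1bah list, 377 and 406 bp in orc1P179A and 244 bp in kos3, with folds from 1.71 to 2.44. Their summits lay in HMLALPHA1 in sir2, kos3 and orc1bah, at 1275106, 1275068 and 1274887. In orc1P179A they lay between the genes, at 1274636 and 1274455. None reached a −log10 q of 10.

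Kos3 covered 0% and 38.5% of HMLALPHA1 in the orc1bah libraries and 0% and 32.5% in the orc1P179A libraries, against 97.7% and 99.0% in wild type. HMLALPHA2 was covered at 0% in both orc1bah libraries and at 33.6% and 42.0% in orc1P179A, against 87.4% and 100% in wild type. Cover of HMLALPHA2 by Kos3 was thus found in both orc1P179A libraries and in neither orc1bah library, over regions of 240 and 303 bp with −log10 q of 4.66 and 5.85, a difference that was not tested. The wild-type Kos3 regions over the genes, 1549 and 2037 bp wide with folds of 3.50 and 4.26, were separate from those at the right site, and their summits lay between the genes, at 1274367 and 1274345.

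The remaining regions lay farther out. To the left, each wild-type Kos3 list had 1 region with a summit in TDEL0C06990, at 1271510 and 1271860. To the right, summits at 1277596 to 1277638 were found in the second sir2 list, in kos3 and in the second orc1bah list for Orc1, with widths of 200, 541 and 530 bp, and in the first wild-type list for Kos3. The first orc1bah list had its Orc1 summit nearby at 1277951. Both wild-type Orc1 lists and the second wild-type Kos3 list covered these positions within longer regions, with no summit of their own there. Neither orc1P179A list had an Orc1 region there. Each wild-type Kos3 list had 2 more regions, with summits from 1278723 to 1278918 and from 1280238 to 1280366, that no mutant list had. The regions with their summits at the places named in this paragraph had folds from 2.01 to 3.87.

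By flank, cover on the right was lower in every mutant library than in wild type. The right 5 kb held 0 and 200 bp of Orc1 cover in sir2, 987 and 1210 bp in orc1bah, 809 and 598 bp in orc1P179A and 1324 bp in kos3, against 3104 and 5000 bp in wild type. The left 5 kb held no Orc1 cover but the left site in the mutants, 824 and 953 bp in sir2, 391 and 624 bp in orc1bah, 856 and 518 bp in orc1P179A and 770 bp in kos3, against 1324 and 4550 bp in wild type. For sir2 the ratio to wild type was 0.0247 on the right and 0.303 on the left. The left ratio rests on the second wild-type library, as the sir2 values were up to 0.720 of the first.

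Beyond the window, 11567 bp lay between it and the last gene or region listed on the chromosome. All 11 mutant libraries covered 0 bp of it. The first wild-type Orc1 library also covered 0 bp, and the second covered 8234 bp, with the end of the HML region and 9 others. The wild-type Kos3 libraries, from the strain of the second Orc1 library, covered 1736 and 2076 bp.

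In orc1bah, the Kos3 regions of the window shared from 62.5% to 100% of their length with Orc1 regions of the same strain, over 4 pairings, and in orc1P179A they shared 75.4% and 53.2%. In wild-type LRY3211, the single Orc1 region held all 8 and all 6 Kos3 regions, which took up 43.7% and 60.3% of it. Wild-type Kos3 over Orc1, by mean covered length, was 0.717. In LRY3211 alone, with its single Orc1 library, the ratio was 0.553. Against the Orc1 library of LRY3204, called against another input, it was 1.02. Orc1 thus covered more in LRY3211, but which protein covered more in wild type is not settled across strains.

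To show how broad this cover was, the chromosomes were divided into 786 windows of the same length. For Orc1, the windows covered over as many bp as HML or more numbered 142 and 132 in the sir2 lists, 18 and 12 in orc1bah, 30 and 70 in orc1P179A and 7 in kos3, against 3 and 4 in wild type. For Kos3 they numbered 12 and 5 in orc1bah and 73 and 69 in orc1P179A, against 5 and 2 in wild type. Many windows had no cover at all. Those with any Kos3 cover numbered 16 and 25 in orc1bah, 85 and 90 in orc1P179A and 40 in each wild-type list. For Orc1 they numbered from 208 to 275. In the first orc1bah list Kos3 cover at HML, 434 bp, was below the median of covered windows, 520.5 bp. Windows that overlap HML were not left out. In wild type few of the 786 windows were thus covered as broadly as HML by either protein. They were laid end to end from the left end of each chromosome, while the HML window was centred on its genes. A broad region elsewhere could thus be split between neighbouring windows and be missed by these counts. The counts in sir2 and orc1P179A take in the added regions of chromosome 8.

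The genes named for mating type in the annotation, those that start with HML, HMR or MAT, and SLA2, which lies beside the mating-type locus in many yeasts, came to 3, the HML genes and SLA2. Within 5 kb of SLA2, at 1051260 to 1052435 on chromosome 3, Orc1 covered 0 bp in both sir2 and both orc1bah libraries, 290 and 0 bp in orc1P179A and 368 bp in kos3, against 1408 and 3851 bp in wild type. Kos3 covered 0 bp there in orc1bah and 0 and 249 bp in orc1P179A, against 1022 and 1841 bp in wild type. Over all 235 wild-type Orc1 regions, 6.38% were missing from every sir2 library and 9.36% from every orc1bah library. Shorter cover was found at 48.5% in orc1P179A and 49.8% in kos3. Of the 62 wild-type Kos3 regions, 61.3% were missing in orc1bah and 95.2% were shorter in orc1P179A. The loss at SLA2 was not tested.

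Of 1832 genes covered within 5 kb in at least 4 lists, the 5 with a pattern of covered length most like that of HML over the 15 lists were CWC25, TDEL0G00190, TDEL0B00110 and the tRNA genes TDEL0Etrna12V and TDEL0Gtrna4V. Their Pearson correlations with HML were 0.990, 0.982, 0.980, 0.980 and 0.976. The 15 points share libraries, strains and threshold, and the 4 wild-type lists set them apart from the rest. CWC25, a splicing factor gene in S. cerevisiae, is a neighbour of SLA2, and its values largely repeat the cover beside SLA2. Within 5 kb of CWC25 the mutant lists covered 0 to 368 bp. In wild type Orc1 covered 1408 and 3196 bp there and Kos3 1022 and 1684 bp. TDEL0B00110 lies at least 6.44 kb from the end of chromosome 2. Within 5 kb of it the mutant lists covered 269 to 1956 bp. In wild type Orc1 covered 7742 and 11734 bp there and Kos3 5978 and 8021 bp.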

How the data were processed

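Per the submitters' processing notes, Bowtie2 2.3.4.1 and MACS2 2.2.7.1 were used. Their settings and the genome build are not given in the sources used here. Each deposited list held peaks of 1 library, each with start, end and summit, its fold enrichment over background as a linear ratio, and −log10 p and q values. The deposited score column was not used. The highest q in a deposited list was 0.0493. All deposited peak names hold the word subsample, and in 11 lists they give another input number than the file name, so the input of a library is taken from the file name.

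Coordinates count from 1. Genes were placed by a RefSeq table of assembly ASM24337v1, with chromosomes matched by the order of the RefSeq entries. Of the wild-type Orc1 summits of chromosome 3 with a −log10 q of at least 10, 87.3% lay outside genes with the genes of that chromosome, against at most 60.3% with those of another. Chromosome ends are the last gene or region listed.

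Regions were clipped to the window for covered length. Summits within 300 bp of each other formed a site, and a list had a site if a region overlapped its span (1 bp or more). A wild-type region was a set of linked regions found in both wild-type lists. Ranges of summits used the region with the highest fold at each place of the shortest list. Named genes were those of the window, those named for mating type with SLA2, and the 5 of most similar pattern, at most 1 per 20 kb and none within 20 kb of HML. The code was tested on simulated lists, with Python 3.11.15 and pandas 2.3.3. Members, lists and measures were chosen with earlier results of these data known.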

Additional observations from a re-analysis of the deposited data

How the results depend on the processing

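All 6 ratios of mutant to wild-type covered length stayed below 1 under every setting tried. With 2 kb on either side of the genes, which leaves out the left site, the ratio was 0.0305 for Orc1 in sir2, 0.198 for Kos3 in orc1bah and 0.334 for Kos3 in orc1P179A. With a −log10 q of at least 10 it was 0.0981 for Orc1 in orc1bah. With the same number of regions from each list it was 0.130 for Kos3 in orc1P179A. Against the wild-type library of the same input it was 0.186 for Orc1 in sir2. Leaving out 1 library gave ratios from 0.101 to 0.186 for Orc1 in sir2, 0.209 to 0.384 in kos3, 0.154 to 0.283 in orc1bah and 0.159 to 0.293 in orc1P179A, and for Kos3 from 0.0701 to 0.158 in orc1bah and 0.158 to 0.230 in orc1P179A. The wild-type ratio of Kos3 to Orc1 passed 1, at 1.08, with the same number of regions from each list, and ranged from 0.553 to 1.02 with 1 library left out. The cause was not tested.

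With a −log10 q of at least 10, the site over the genes was found in 2 Orc1 and 2 Kos3 lists and the left site in 0 Kos3 lists. With at least 5, the site over the genes was found in 4 Orc1 lists. No paired analysis was possible because the results come from no test. Peak lists without counts limit every statement to what passed the threshold.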
